A study of Mus musculus with 4 samples.

Results

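Interleukins are secreted signals by which immune, epithelial and stromal cells address each other, and their receptors are built from a small set of shared chains. The genes described here are those whose name on the array starts with Il and a digit, that is, the interleukins, their receptor chains and a few relatives such as *Il4i1*, a secreted enzyme. There were 82 such gene names among the 29924 of the array, carried by 105 of its 39429 probes. A gene was represented by its brightest probe.

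RNA came from mouse ureters explanted at postnatal day (P) 0 and cultured for 8 days on the NMRI outbred background. *Pparg-cKO* ureters were *Pax2-cre/+; Pparg (fl/fl)*, so that exons 2 and 3 of *Pparg*, a lipid-activated transcription factor gene, are deleted in the ureteric epithelium. Controls were cre-negative littermates, labelled *Pparg (fl/?)*. Ureters of both genotypes received DMSO, the solvent, or 2 µM purmorphamine, an agonist of Smoothened and so of sonic hedgehog (SHH) signaling. Each group had 2 pools, male (replicate 1) and female (replicate 2), and each of the 4 two-color arrays carried the DMSO and the purmorphamine pool of 1 genotype and 1 sex, with the dyes exchanged between the sexes. All 4 arrays lay on 1 slide. The labels do not give the number of animals in a pool. For purmorphamine effects, p-values measure the spread between replicates in the ratios of the 4 arrays. For genotype differences, they measure the spread between replicates among these 8 pools. In both, replicates differ in sex and dye at once.

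Values are log2 intensities after correction for background and dye, and a level is never compared between genes, because probes differ in brightness. Tests are limma's moderated test with Benjamini-Hochberg adjustment over the 20229 genes tested, and a gene was called at an adjusted p under 0.05. The *Pparg* probe does not check the genotype, because, by the study's own account, the floxed allele still makes a truncated message. *Pparg* read 14.79 and 15.31 in control and 15.55 and 15.58 in *Pparg-cKO* ureters with DMSO, and 15.10 and 15.18 against 15.95 and 16.10 with purmorphamine. *Shh*, the ligand gene of the pathway, read 12.54 and 12.41 in control and 9.64 and 9.46 in *Pparg-cKO* ureters with DMSO, and was called lower (adjusted p = 0.0023). *Ptch1*, *Hhip* and *Gli1*, which SHH signaling induces, were called higher with purmorphamine averaged over the genotypes, by 1.31, 1.76 and 1.20 on the log2 scale. The defining markers of urothelium (*Krt5*, *Trp63*, *Krt14*, *Upk1b*, *Upk2*, *Cdh1*) and of mesenchyme and smooth muscle (*Col1a1*, *Pdgfra*, *Acta2*, *Myh11*) were above background in all 8 pools.

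Interleukins are grouped by the receptor chains they use. *Il1a*, *Il1b*, *Il18*, *Il33* and the IL-36 genes form the IL-1 family, whose receptors signal through MYD88 to NF-kB. *Il6* and *Il11* act through the shared chain gp130, encoded by *Il6st*, while *Il4*, *Il7*, *Il9*, *Il15* and *Il21* act through the common gamma chain, encoded by *Il2rg*, and both use JAK kinases and STAT factors. *Il4*, *Il5*, *Il9* and *Il13* are the type 2 cytokines, made mainly by T helper cells, innate lymphoid cells and mast cells.

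The upstream sequences of the 5 ligand genes that fell most on average with purmorphamine, with the processing used here, are shown first. A promoter is the place where such genes meet the factors that drive them. They are the 250 bases before the annotated start, from RefSeq on GRCm38.p6, and 65 of the 82 gene names had an entry. Capitals mark the letters TGANTCA, the AP-1 motif, or the NF-kB consensus, each searched on both strands.

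*Il11*, chr7:4778142-4778391, minus strand: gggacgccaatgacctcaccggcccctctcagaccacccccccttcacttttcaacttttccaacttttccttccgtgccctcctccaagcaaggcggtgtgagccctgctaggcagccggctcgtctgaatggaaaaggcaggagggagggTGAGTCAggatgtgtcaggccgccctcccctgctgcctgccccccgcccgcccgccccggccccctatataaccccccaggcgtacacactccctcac

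*Il6*, chr5:30012864-30013113, plus strand: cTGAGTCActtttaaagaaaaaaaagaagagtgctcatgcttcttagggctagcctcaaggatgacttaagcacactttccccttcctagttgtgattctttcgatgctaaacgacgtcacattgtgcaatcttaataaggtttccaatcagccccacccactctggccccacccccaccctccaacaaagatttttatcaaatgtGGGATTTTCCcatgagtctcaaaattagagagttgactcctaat

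*Il9*, chr13:56482258-56482507, minus strand: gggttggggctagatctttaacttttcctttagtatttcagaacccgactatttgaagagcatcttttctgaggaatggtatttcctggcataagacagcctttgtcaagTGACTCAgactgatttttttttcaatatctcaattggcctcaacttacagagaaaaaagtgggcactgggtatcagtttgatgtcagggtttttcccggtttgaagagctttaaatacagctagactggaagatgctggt

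*Il13*, chr11:53634703-53634952, minus strand: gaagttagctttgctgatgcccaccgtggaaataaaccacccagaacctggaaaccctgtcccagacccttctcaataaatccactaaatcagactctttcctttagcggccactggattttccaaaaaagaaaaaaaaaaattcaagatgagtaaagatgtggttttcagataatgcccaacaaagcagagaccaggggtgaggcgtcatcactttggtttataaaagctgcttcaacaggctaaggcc

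*Il1b*, chr2:129371140-129371389, minus strand: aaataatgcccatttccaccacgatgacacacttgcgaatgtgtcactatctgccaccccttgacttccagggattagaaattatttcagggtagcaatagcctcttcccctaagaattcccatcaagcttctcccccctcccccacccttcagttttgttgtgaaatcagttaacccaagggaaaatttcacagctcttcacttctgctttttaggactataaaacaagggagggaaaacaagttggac

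The AP-1 letters lie 98 to 92 bases before the start in *Il11*, 249 to 243 in *Il6* and 140 to 134 in *Il9*, and the NF-kB letters of *Il6* lie 44 to 35 bases before its start. None of the motifs searched was found in the windows of *Il13* and *Il1b*, nor in that of *Il5*. *Il11* has another annotated start, whose window holds none of them either. Of the 28 genes called lower with purmorphamine (below) that had an entry, 8 hold the AP-1 letters (*Il1a*, *Il1rn*, *Il6*, *Il9*, *Il11*, *Il13ra2*, *Il17rb*, *Il20ra*), 4 the NF-kB consensus (*Il1r1*, *Il2ra*, *Il6*, *Il19*) and 3 the STAT letters TTCNNNGAA (*Il1r2*, *Il18r1*, *Il19*). Counting also those not called lower, 12, 6 and 7 of the 48 tested genes with an entry hold the AP-1, NF-kB and STAT letters. Among all 27018 genes with an entry the shares were 7.82%, 8.24% and 8.13%, and among all 32841 promoters 6.75%, 7.25% and 7.02%. The GLI letters GACCACCCA, in 0.225% of all promoters, and the CRE letters TGACGTCA, in 1.55%, were in 0 of the 48 tested genes with an entry. A match is a description of letters and no evidence of binding.

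Of the 82 genes, 49 were well above background in all 8 pools and 14 in none. The silent 14 were *Il2*, *Il3*, *Il12a*, *Il12b*, *Il17a*, *Il17f*, *Il20*, *Il21*, *Il31*, the receptor genes *Il9r*, *Il23r* and *Il1rapl2*, the decoy receptor gene *Il22ra2* and *Il1bos*. Thus the classical T cell products *Il2*, *Il17a*, *Il17f* and *Il21* were not well above background in these cultures, and *Il12a* and *Il12b*, the chains of IL-12, were not either. The number of genes above background was 58 to 64 per pool with DMSO and 55 to 59 with purmorphamine. The 64 genes tested had, in 1 or more groups, a probe above background in the male and the female pool, comprising 24 ligands, 34 receptor chains, 4 decoys or antagonists and 2 others. *Il17c*, *Il22*, *Il1f5* and *Il1f8* were above background in 1 pool each and were not tested.

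With purmorphamine more of these genes fell than rose in each genotype. Of the 64, 8 were called lower in both, and the share of all genes called lower in both was not counted. In *Pparg-cKO* ureters 16 of 64 fell and 1 rose, where 3.10% of all genes fell and 2.02% rose. In control ureters 11 fell and 0 rose, where 1.12% of all genes fell and 0.405% rose. Averaged over the genotypes 33 fell and 2 rose, against 7.87% and 6.33% of all genes, and the median of the 64 was -0.50 on the log2 scale against 0.005 for all genes. The sign alone ran the same way, since 39 of 64 were lower with purmorphamine on all 4 arrays and 5 were higher on all 4, where 20.5% and 21.5% of all genes were.

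The calls within 1 genotype rest on 2 arrays. The counts in this paragraph are of interleukin genes alone. The shares of all genes called in the same fits are not given here, so a changed count need not be particular to these genes. Without the male or the female control array, 0 genes were called in control ureters, and without either *Pparg-cKO* array 18 were. In *Pparg-cKO* ureters the count of 17 became 12 without the male and 5 without the female *Pparg-cKO* array. With all probes tested regardless of brightness the counts were 6 in *Pparg-cKO* and 2 in control ureters. Of the 35 genes called on average, 22 were called whichever array was left out, while *Il10ra*, *Il13ra1*, *Il1r1*, *Il4i1*, *Il18bp*, *Il18rap*, *Il1rl1*, *Il17rb*, *Il1rn*, *Il20rb*, *Il4*, *Il4ra* and *Il6ra* lost the call without at least 1 array.

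**Figure D1:**
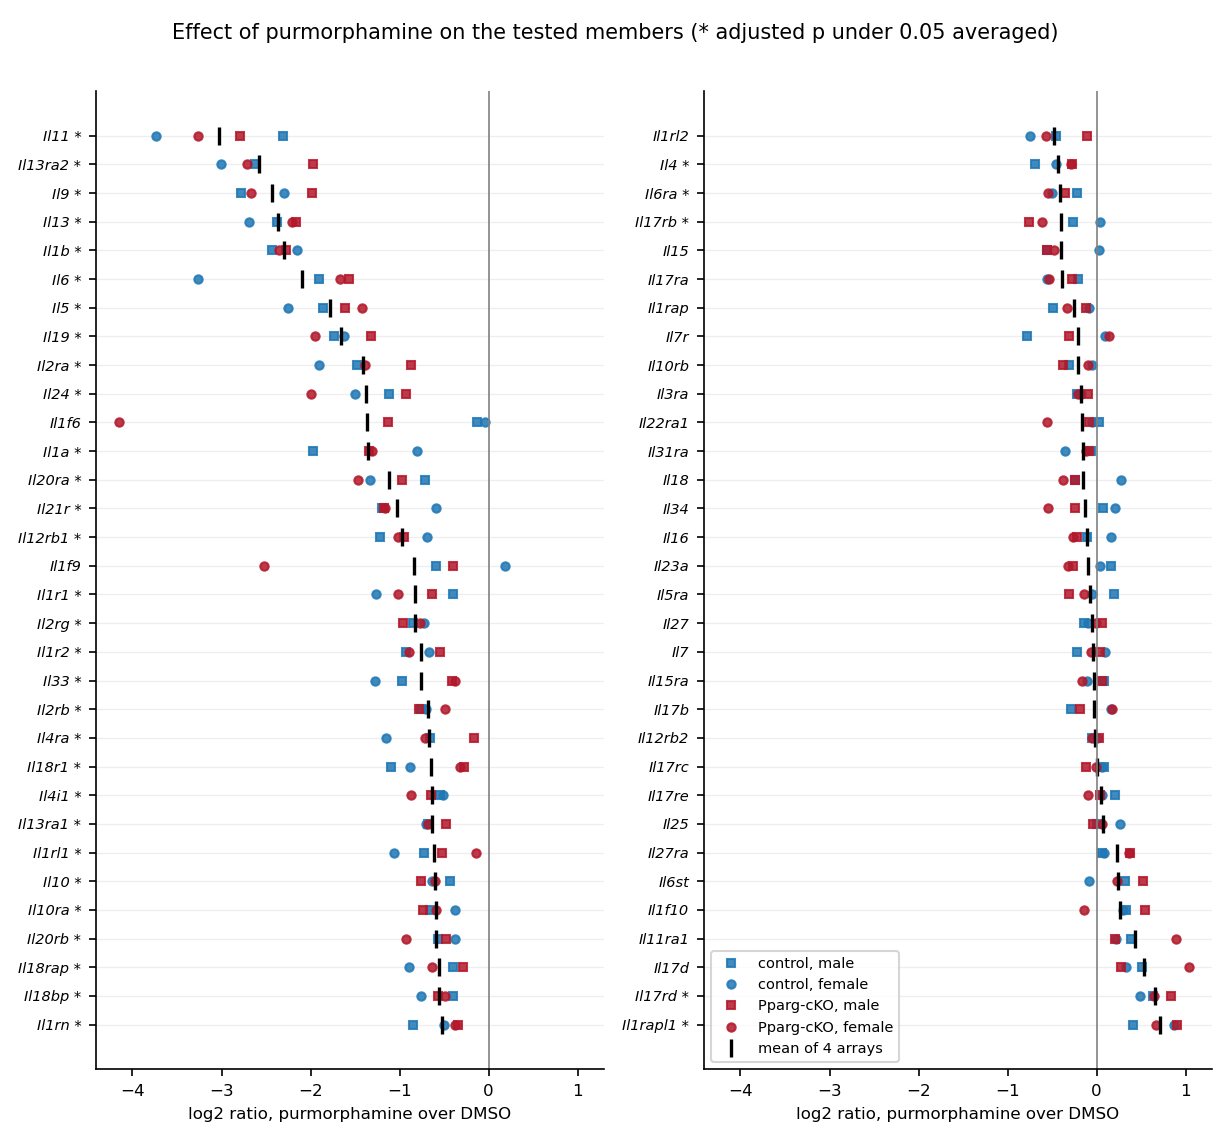
Log2 ratio of purmorphamine over DMSO on each array (horizontal axis) for the 64 genes tested (vertical axis), ordered by the mean of the 4 arrays, which is the black bar. Squares are male and circles female pools, blue is control and red *Pparg-cKO*, and an asterisk marks the 35 genes called on average; *Il11* and *Il13ra2* lie farthest to the left on average and *Il17rd* and *Il1rapl1* farthest to the right, and the female *Pparg-cKO* array stands apart for *Il1f6* and *Il1f9*.

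With the processing used here, *Il11* had the largest average fall among the 64 genes. It encodes a gp130 cytokine of stromal and epithelial cells that is known for its part in fibrosis. Under the alternatives (below) the average log2 change reached -5.71 for *Il9*, -4.20 for *Il13ra2* and -3.77 for *Il13*, against -3.38 for *Il11*. *Il11* read 14.43 and 14.19 in the control and 14.29 and 13.84 in the *Pparg-cKO* pools with DMSO. With purmorphamine it read 12.12 and 10.46 in the control and 11.50 and 10.57 in the *Pparg-cKO* pools. Every purmorphamine pool lay below every DMSO pool, and the female pools were the lower in both genotypes. The fall was 8.12-fold in control (adjusted p = 0.040) and 8.17-fold in *Pparg-cKO* ureters (adjusted p = 0.022).

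*Il6*, the gp130 cytokine that drives the acute phase response, read 11.55 and 11.95 in control and 11.11 and 10.22 in *Pparg-cKO* ureters with DMSO. With purmorphamine the values were 9.65 and 8.68 in control and 9.55 and 8.55 in *Pparg-cKO* ureters. *Il6* fell 5.99-fold in control ureters (adjusted p = 0.043) and 4.29-fold on average (adjusted p = 0.011), and by the fold rule of the study's methods (at least 1.5-fold in both replicates) it was also lower in *Pparg-cKO* ureters. The pools did not overlap, although the female *Pparg-cKO* pool with DMSO stood nearest to the treated ones. The gp130 chain itself, *Il6st*, was 0.24 ± 0.11 (SE) higher on average and the IL-11 receptor chain *Il11ra1* 0.43 ± 0.13 higher, and neither passed the test (adjusted p = 0.20 and 0.097). *Il6ra*, the ligand-binding chain for IL-6, fell by 0.41 ± 0.09 (adjusted p = 0.042), a call that was lost whichever array was left out. In all, 3 of the 8 tested genes of this family fell on average, where 7.87% of all genes did. *Il27*, *Il27ra* and *Il31ra* were not called.

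**Figure D2:**
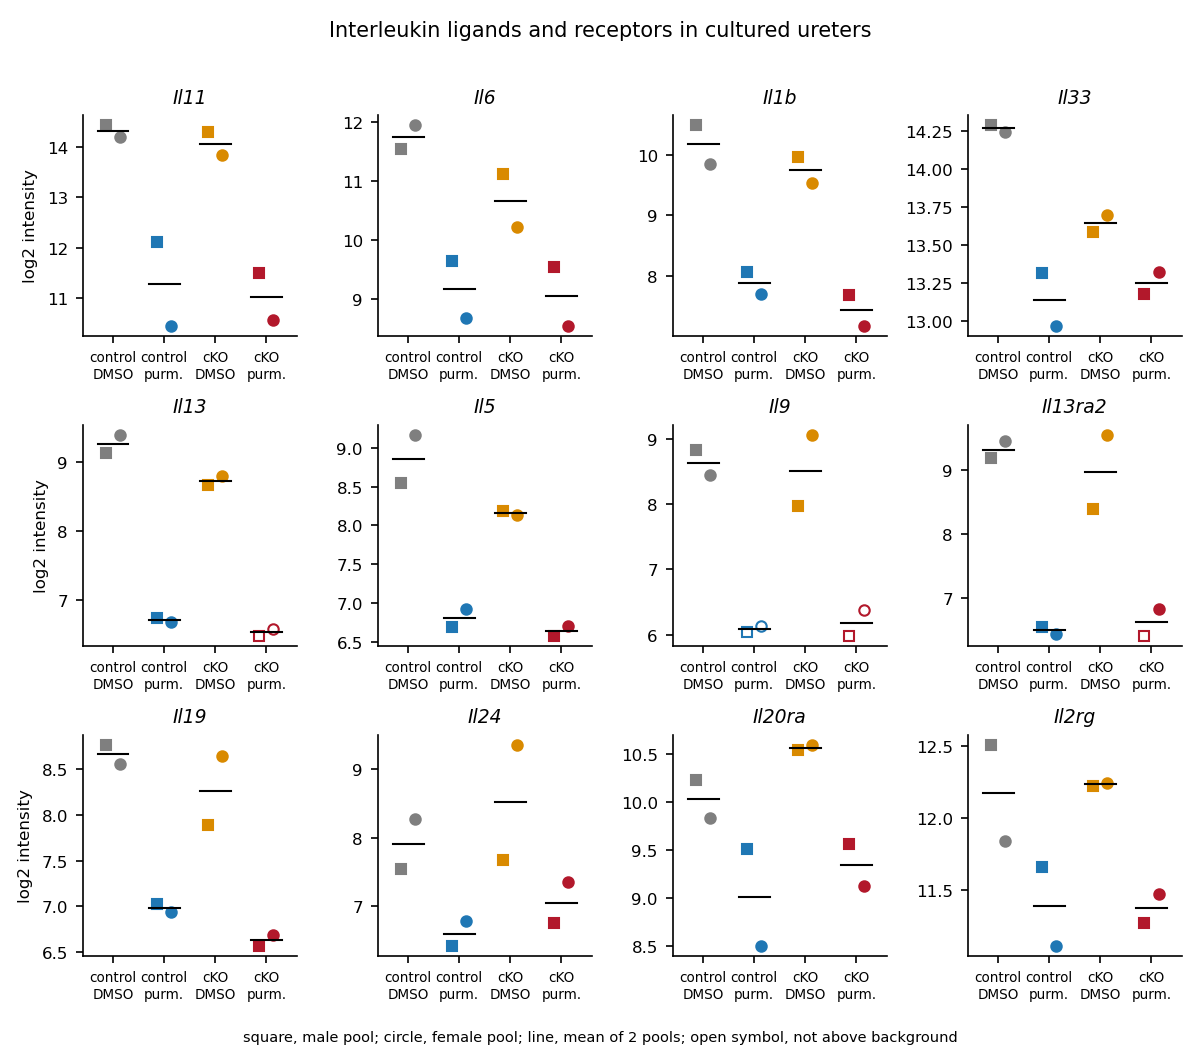
Log2 intensity (vertical axis, its range set for each gene) of 12 genes in the 4 groups of 2 pools. Squares are male and circles female pools, the line is the mean of the 2, and open symbols were not above background; for *Il11*, *Il6*, *Il1b*, *Il13*, *Il5* and *Il9* every pool with purmorphamine lies below every pool with DMSO.

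In the IL-1 family, *Il1b*, the main secreted pyrogenic cytokine of macrophages, read 10.49 and 9.85 in control and 9.95 and 9.53 in *Pparg-cKO* ureters with DMSO. It read 8.06 and 7.70 in control and 7.68 and 7.17 in *Pparg-cKO* ureters with purmorphamine. The 4 arrays gave falls of close size, and the fall was 4.90-fold in control (adjusted p = 0.011) and 4.97-fold in *Pparg-cKO* ureters (adjusted p = 0.0098). *Il1a*, which is released from damaged cells, fell 2.57-fold on average (adjusted p = 0.018) and was called in neither genotype. *Il33*, an alarmin kept in nuclei of stromal and epithelial cells, read 14.29 and 14.24 in control ureters with DMSO and 13.31 and 12.97 with purmorphamine, a 2.18-fold fall (adjusted p = 0.036). In *Pparg-cKO* ureters *Il33* read 13.59 and 13.70 with DMSO and 13.18 and 13.32 with purmorphamine, which was no call in that genotype. *Il18*, an interferon-inducing cytokine, was not called (-0.15 ± 0.11 on average). Inhibitors of the family fell too. *Il1rn*, the receptor antagonist, and *Il18bp*, which binds IL-18, fell by 0.52 and 0.56.

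Among the receptors of the IL-1 family, *Il1r1*, the signaling receptor, fell by 0.83 ± 0.16 and the decoy receptor *Il1r2* by 0.76 ± 0.10 on average. Both chains for IL-18, *Il18r1* and *Il18rap*, fell by 0.65 and 0.56. *Il1rl1*, the receptor for IL-33, fell by 0.62 ± 0.11 at its brightest probe (adjusted p = 0.026). Its other probes gave -2.13 and -0.37, the widest disagreement among the 10 genes with several tested probes. *Il1rap*, the accessory chain of the receptors for IL-1, IL-33 and IL-36, was not called (-0.26 ± 0.10, adjusted p = 0.16), nor was the IL-36 receptor *Il1rl2* (-0.47 ± 0.11, adjusted p = 0.052). *Il1rapl1*, an accessory protein best known from synapses, rose by 0.71 ± 0.11 (adjusted p = 0.019). It read 6.46 to 6.82 with DMSO and 7.09 to 7.49 with purmorphamine over both genotypes, close to the limit of detection. *Il1rapl1* entered the tests through the pools with purmorphamine, where it is high. With DMSO the male *Pparg-cKO* and the female control pool were not above background.

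Of the type 2 cytokines, *Il13*, *Il5* and *Il9* fell in both genotypes and *Il4* on average alone. *Il13* read 9.13 and 9.39 in control and 8.66 and 8.80 in *Pparg-cKO* ureters with DMSO. With purmorphamine it read 6.75 and 6.70 in control ureters, and 6.49 and 6.59 in *Pparg-cKO* ureters, where it was not well above background. Replicates differed far less than the treatments, with a 5.80-fold fall in control (adjusted p = 0.011) and a fall of at least 4.56-fold in *Pparg-cKO* ureters (adjusted p = 0.0098). *Il5*, the eosinophil growth factor, read 8.55 and 9.17 in control and 8.18 and 8.13 in *Pparg-cKO* ureters with DMSO. With purmorphamine it read 6.69 and 6.92 in control and 6.58 and 6.70 in *Pparg-cKO* ureters, and the falls were 4.16-fold (adjusted p = 0.019) and 2.86-fold (adjusted p = 0.016). *Il9*, a growth factor of mast cells, read 7.97 to 9.05 with DMSO over both genotypes and was not well above background in any pool with purmorphamine. It entered the tests through the DMSO pools, where it is high. Its fall was at least 4.90-fold in control and at least 4.17-fold in *Pparg-cKO* ureters (adjusted p = 0.024 and 0.016). *Il4*, which shares a receptor chain with IL-13, fell by 0.43 ± 0.08 on average (adjusted p = 0.029), was called in neither genotype and kept the average call in 1 of the 4 fits that left out an array.

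Receptors for these cytokines split. *Il13ra2*, the decoy receptor that traps IL-13 and is itself induced by it, read 9.18 and 9.45 in control and 8.39 and 9.54 in *Pparg-cKO* ureters with DMSO. It read 6.56 and 6.44 in control and 6.42 and 6.83 in *Pparg-cKO* ureters with purmorphamine. The decoy fell 7.04-fold in control (adjusted p = 0.019) and 5.08-fold in *Pparg-cKO* ureters (adjusted p = 0.016), the latter with 1 of the 2 treated pools above background. The signaling chains changed less, with falls on average of 0.64 ± 0.08 for *Il13ra1* and 0.68 ± 0.14 for *Il4ra*. *Il3ra* and *Il5ra* were not called (-0.18 ± 0.07 and -0.08 ± 0.08).

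Of the 11 tested genes of the common gamma chain family, 7 fell on average, where 7.87% of all genes did. Besides *Il4*, *Il9* and *Il4ra* these were *Il2ra*, *Il2rb* and *Il2rg*, the chains of the IL-2 receptor, and *Il21r*. *Il2ra* entered the tests through the DMSO pools, where it is high. It fell 3.24-fold in control ureters (adjusted p = 0.036), where 1 of the 2 pools with purmorphamine was above background, and at least 2.14-fold in *Pparg-cKO* ureters (adjusted p = 0.039), where neither pool with purmorphamine was above background. *Il2rg* read 12.51 and 11.84 in control and 12.23 and 12.24 in *Pparg-cKO* ureters with DMSO, and 11.66 and 11.11 against 11.27 and 11.47 with purmorphamine. It fell 1.77-fold on average, and *Il21r* 2.05-fold (adjusted p = 0.0078 and 0.012). *Il7*, *Il7r*, *Il15* and *Il15ra*, which sustain lymphocytes, were not called, at -0.04, -0.21, -0.40 and -0.03.

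In the IL-10 family 6 of 8 tested genes fell on average, where 7.87% of all genes did. *Il19*, an epithelial and myeloid cytokine, read 8.77 and 8.56 in control and 7.89 and 8.64 in *Pparg-cKO* ureters with DMSO, and 7.03 and 6.93 against 6.57 and 6.69 with purmorphamine. It fell 3.21-fold in control (adjusted p = 0.035) and 3.11-fold in *Pparg-cKO* ureters (adjusted p = 0.020), while its dimmer probe gave -0.56 and -0.55. *Il24*, its relative, fell 2.61-fold on average (adjusted p = 0.017) and was called in neither genotype. The receptor chains for both, *Il20ra* and *Il20rb*, fell by 1.12 and 0.59 on the log2 scale. *Il10*, the anti-inflammatory founder of the family, and its specific chain *Il10ra* fell by 0.61 and 0.59, while the shared chain *Il10rb* was not called (-0.21 ± 0.09). Neither control pool with purmorphamine was above background for *Il10*. Its fall in control ureters was thus at least 1.34-fold, with no call there (adjusted p = 0.1).

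In the remaining families fewer genes were called on average. In the IL-12 and IL-23 family *Il12rb1*, a chain that both receptors share, fell by 0.97 ± 0.11 (adjusted p = 0.011), its dimmer probe giving -0.23, and *Il12rb2* and *Il23a* were not called. In the IL-17 family 1 of 8 fell and 1 rose on average, where 7.87% and 6.33% of all genes did. The gene that fell was *Il17rb*, a chain of the receptor for *Il25* (by 0.40 ± 0.09, adjusted p = 0.044). It was called in *Pparg-cKO* ureters (-0.69, adjusted p = 0.049) and not in control ureters (-0.11, adjusted p = 0.71). Neither control pool with purmorphamine was above background. The gene that rose was *Il17rd*, also called Sef, an inhibitor of FGF signaling that lies apart from the cytokine-binding receptors. *Il17rd* read 11.77 and 11.87 in control and 11.95 and 12.02 in *Pparg-cKO* ureters with DMSO, and 12.40 and 12.36 against 12.79 and 12.66 with purmorphamine. It rose 1.57-fold on average (adjusted p = 0.013), with no overlap between treatments. *Il17ra*, the common receptor, and *Il17d* were not called (-0.39 ± 0.10 and 0.54 ± 0.14, adjusted p = 0.059 and 0.069). *Il4i1* fell by 0.64 ± 0.08, and *Il16* and *Il34* were not called.

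The fold rule of the methods, which also asks for an intensity over 100 in the brighter channel, called 15 genes lower and 1 higher of 39 in *Pparg-cKO* ureters, where 4.79% and 3.88% of all genes that could pass were. In control ureters it called 16 lower and 0 higher of 37, against 3.69% and 2.76%. *Il9*, *Il24* and *Il10* are not in either list. *Il1a*, *Il1r1*, *Il1rl1*, *Il4ra* and *Il6* in *Pparg-cKO* ureters met the rule without a limma call there, as did *Il13ra1*, *Il1r2*, *Il1rl1*, *Il20ra*, *Il21r*, *Il2rg* and *Il4ra* in control ureters. The higher gene was *Il17rd*.

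Genes around the interleukins were read from fixed lists. Of 19 tested genes that IL-1, IL-17 or IL-6 commonly induce, 16 fell on average and 0 rose, with a median of -1.65 on the log2 scale. The chemokine genes *Cxcl5*, *Ccl7*, *Cxcl1* and *Ccl2* changed by -3.05, -2.63, -2.19 and -2.12, and *Ptgs2*, which encodes the inducible cyclooxygenase, by -2.54. Of 23 tested genes of the JAK-STAT relay 6 fell and 0 rose, at a median of -0.21. Those that fell most were *Cish* (-2.26 ± 0.12), *Socs3* (-1.31 ± 0.28), *Socs2* (-1.24 ± 0.12) and *Socs1* (-0.85 ± 0.07), which encode feedback inhibitors that cytokine receptors induce, and *Jak2* and *Ptpn6* fell by less. Of 13 inflammasome and processing genes 7 fell and 0 rose (median -0.46), among them *Casp1* (by 0.69) and *Casp4* (by 0.97), the caspases that mature or release IL-1. The relay from IL-1 and IL-17 receptors to NF-kB moved least, with 3 of 24 lower (*Tnfaip3*, *Nfkbie*, *Nfkb2*), 0 higher and a median of -0.11. Of 28 other cytokines and receptors that share chains with interleukins 12 fell and 0 rose (median -0.31), led by *Tslp* (by 1.52), *Csf2* (by 1.31), the receptor chain *Csf2rb* (by 1.18) and *Osm* (by 1.04). In the same comparison 7.87% of all genes fell and 6.33% rose, and the median of all genes was 0.005.

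**Figure D3:**
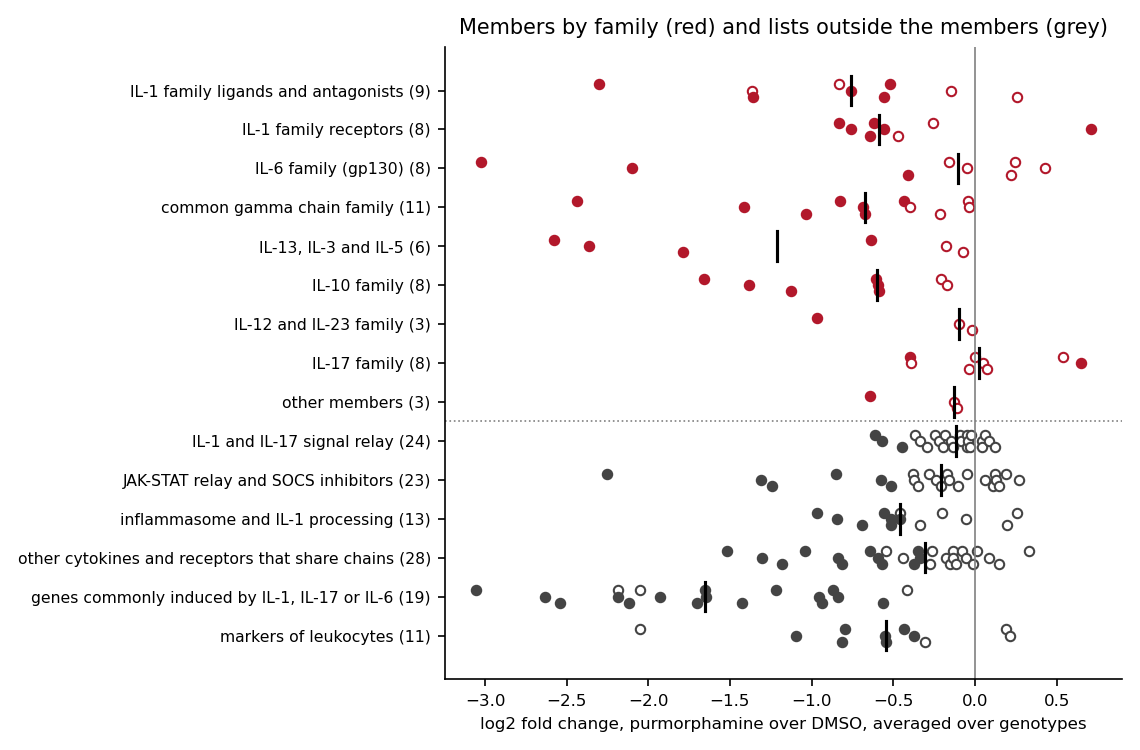
Log2 fold change with purmorphamine averaged over the genotypes (horizontal axis) for the tested genes of each interleukin family (red) and of the lists around them (grey), with the number tested in brackets. Filled points passed the test, open points did not and black bars are medians; the medians are lowest for genes commonly induced by IL-1, IL-17 or IL-6 (-1.65) and for the IL-13, IL-3 and IL-5 family (-1.21), and the median of the IL-17 family is 0.03.

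Markers of leukocytes moved with these genes. Of 11 tested markers 7 fell on average and 0 rose (median -0.55), where 7.87% and 6.33% of all genes did. Those that fell were *Adgre1* (by 1.09), *Csf1r* (by 0.82), *Cd14* (by 0.79), *Ptprc* (by 0.55), *Ly6g* (by 0.55), *Itgam* (by 0.44) and *Cd68* (by 0.37). The summed linear intensity of all 12 markers, divided by 1000, was 200.1 to 247.3 in control and 219.5 to 235.0 in *Pparg-cKO* ureters with DMSO, and 137.3 to 186.9 and 157.9 to 186.7 with purmorphamine. The mast cell marker *Cpa3* (0.22 ± 0.15) and the T cell marker *Cd3e* (0.19 ± 0.10) were not called. *Col1a1*, *Acta2* and *Myh11* of mesenchyme and smooth muscle and *Cdh5* and *Kdr* of endothelium rose by 0.68 to 1.28. Of the 6 urothelium markers *Upk1b* and *Upk2* rose, by 1.31 and 0.76, and the other 4 were below 0 and not called. The part of leukocyte number in the interleukin results was not tested, and fewer cells of a type cannot be told apart from less RNA per cell in whole ureters.

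The difference between the purmorphamine effects in the 2 genotypes was tested for each gene. It was called for 0 of 64 genes and for 0% of all genes in either direction, and at an unadjusted p under 0.05 for 4 of 64 higher and 4 lower, where 1.58% and 1.74% of all genes were. The smallest adjusted p over all genes was 0.83. Among the 8 were *Il33* (0.73 ± 0.17, unadjusted p = 0.0072) and *Il18r1* (0.69 ± 0.16, unadjusted p = 0.0065), each with an adjusted p of 1. The purmorphamine effect on *Il33* was -1.12 in control and -0.39 in *Pparg-cKO* ureters, and on *Il18r1* -0.99 and -0.30. For *Il11* and *Il1b* the differences were -0.01 ± 0.49 and -0.02 ± 0.17. In 3 genes, *Il34*, *Il23a* and *Il17rc*, both arrays of 1 genotype moved against both of the other, and none of these was called. The share of all genes with this pattern was not counted, so the 3 are not set against a background.

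Between the genotypes few interleukin genes differed. With DMSO 2 of 64 were higher in *Pparg-cKO* ureters and 2 lower, where 2.00% and 1.90% of all genes were. With purmorphamine 0 were higher and 2 lower, where 1.24% and 1.90% of all genes were. The fold rule called 2 of 42 lower and 0 higher with DMSO (2.92% and 2.59% of all genes), namely *Il17rc* and *Il18r1*, and 1 of 33 lower and 0 higher with purmorphamine (3.23% and 3.06%), *Il17rc*. The shares of interleukin genes called were thus near the background in both directions.

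The genes called lower with purmorphamine were *Il17rc* and *Il17re*, while *Il17rb*, another receptor chain of the IL-17 family, was called higher with DMSO. *Il17rc*, which pairs with *Il17ra* to bind IL-17A and IL-17F, read 14.01 and 13.99 in control and 13.30 and 13.40 in *Pparg-cKO* ureters with DMSO, and 14.09 and 14.05 against 13.19 and 13.39 with purmorphamine. It was 1.57-fold lower with DMSO (adjusted p = 0.019) and 1.72-fold lower with purmorphamine (adjusted p = 0.015), and its dimmer probe gave -1.14 and -1.10. With replicate and dye in the model, as a block, the adjusted p was 0.063 and 0.057. The ratio of purmorphamine over DMSO for *Il17rc* lay between -0.11 and 0.08 on the 4 arrays. *Il17re*, the receptor for epithelial IL-17C, read 12.58 and 12.75 in control and 12.23 and 12.33 in *Pparg-cKO* ureters with DMSO, and 12.78 and 12.82 against 12.27 and 12.22 with purmorphamine. It was called lower with purmorphamine (1.47-fold, adjusted p = 0.038) but not with DMSO (-0.39 ± 0.10, adjusted p = 0.095), and with the block the adjusted p with purmorphamine was 0.078. The ligands *Il17a* and *Il17f* were not above background, and *Il17ra* was not called between genotypes. Of the 6 urothelium markers 1 was called lower with DMSO (*Upk1b*, -1.31) and 1 with purmorphamine (*Trp63*, -1.11), none was called higher, and *Krt14* read 1.27 ± 0.36 and 0.42 ± 0.36 higher (adjusted p = 0.13 and 0.68). Their part in the result was not tested.

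*Il18r1*, the binding chain for IL-18, read 10.71 and 10.54 in control and 9.62 and 9.63 in *Pparg-cKO* ureters with DMSO, a 2.00-fold difference (adjusted p = 0.0042). With purmorphamine it read 9.62 and 9.65 against 9.35 and 9.30, which was no call (-0.31 ± 0.10, adjusted p = 0.17). Higher with DMSO were *Il10* and *Il17rb*. *Il10* read 6.60 and 6.99 in control and 8.10 and 7.65 in *Pparg-cKO* ureters, 2.12-fold more (adjusted p = 0.037), and *Il17rb* 6.55 and 6.20 against 7.58 and 7.19, 2.01-fold more (adjusted p = 0.029). For *Il17rb* 1 of the 2 control pools with DMSO was above background, so that its fold rests in part on an unmeasured level, and it entered the tests through the *Pparg-cKO* pools, where it is high. The *Il10* call was lost with the block (adjusted p = 0.11). *Il33* and *Il13* were not called, at -0.62 and -0.53 (adjusted p = 0.057 and 0.064). *Il22ra1* and *Il23a* entered the tests through the *Pparg-cKO* pools with DMSO alone and were not above background in the control pools with DMSO. Their means were at least 1.34-fold and 1.26-fold higher, with no call (adjusted p = 0.058 and 0.090). Of the lists around the interleukins, *Csf3*, which encodes the granulocyte growth factor G-CSF, was higher in *Pparg-cKO* ureters by 1.20 ± 0.15 with DMSO and by 1.71 ± 0.15 with purmorphamine (adjusted p = 0.0088 and 0.0048), *Cntf* was higher with DMSO (by 0.49), and *Saa2* (-1.28, with DMSO), *Hp* (-2.43, with purmorphamine) and *Capn1* (-0.70, with DMSO) were lower. The T cell marker *Cd3e* was lower in *Pparg-cKO* ureters too, at -0.68 with DMSO and -1.01 with purmorphamine (adjusted p = 0.049 and 0.018), and its part in these results was not tested.

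The genotype calls depended on single arrays. The counts that follow are of interleukin genes alone, without the shares of all genes called in the same fits. The count of 4 with DMSO was 0 without either control array, 4 without the male and 1 without the female *Pparg-cKO* array, and the count of 2 with purmorphamine was 0 without any 1 array. With replicate and dye in the model, as a block, 2 and 0 were called.

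**Figure D4:**
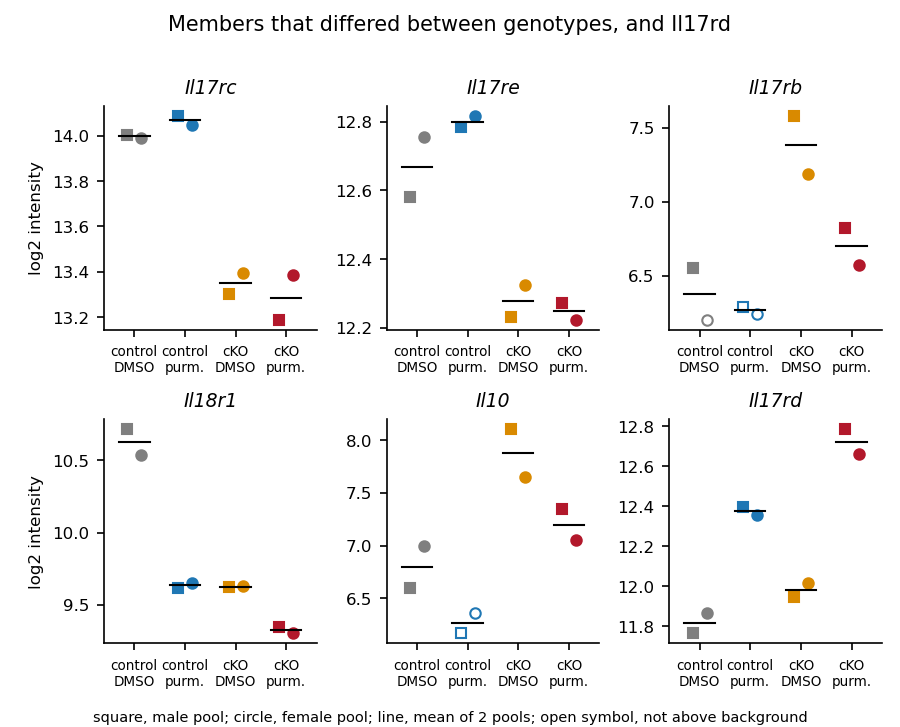
Log2 intensity (vertical axis, its range set for each gene) of the 5 genes called between genotypes and of *Il17rd* in the 4 groups of 2 pools, with male pools as squares, female pools as circles, means as lines and open symbols not above background. *Il17rc* and *Il17re* are lower in *Pparg-cKO* ureters under both treatments, *Il18r1* is highest in control ureters with DMSO, and *Il17rd* is higher with purmorphamine in both genotypes.

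The IL-36 genes, epidermal members of the IL-1 family, differed widely between pools and were not called. *Il1f6*, which encodes IL-36 alpha, read 7.09 in the male and 11.21 in the female *Pparg-cKO* pool with DMSO, against 6.12 and 5.97 in control ureters, where it was not above background. *Il1f6* entered the tests through the *Pparg-cKO* pools with DMSO alone, where it is high. The means differed at least 6.58-fold, with an adjusted p of 0.25. *Il1f5*, the IL-36 receptor antagonist, and *Il1f8*, IL-36 beta, were above background in the female *Pparg-cKO* pool with DMSO alone, at 9.80 and 8.83, and *Il1f9*, IL-36 gamma, read 9.62 there and 6.44 to 7.70 in the other 7. With purmorphamine the female *Pparg-cKO* pool read 7.06 for *Il1f6* and 7.10 for *Il1f9*. Without the male *Pparg-cKO* array, so that the female one stood alone, the difference of the purmorphamine effects for *Il1f6* was -4.07. With all arrays it was -2.56 and not called.

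Other genes stood out in the same pool. *Il24* read 9.35 there and 6.42 to 8.28 in the others, and *S100a8*, which encodes a calprotectin subunit of neutrophils and of stressed keratinocytes, read 13.33 there and 6.83 to 9.17 in the others. *Krt14*, a basal keratin gene, read 16.05 there and 13.83 to 14.93 elsewhere. *Ly6g*, a neutrophil marker, read 11.81 in it and 12.15 in the male pool. Their part in the IL-36 values was not tested.

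**Figure D5:**
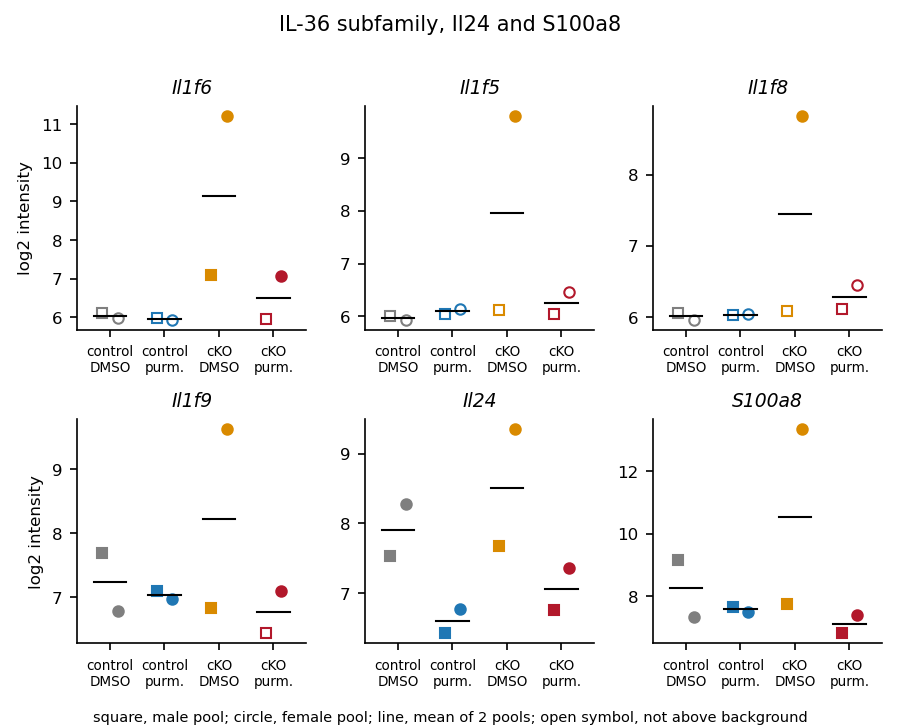
Log2 intensity (vertical axis, its range set for each gene) of *Il1f6*, *Il1f5*, *Il1f8*, *Il1f9*, *Il24* and *S100a8* in the 4 groups of 2 pools, with male pools as squares, female pools as circles, means as lines and open symbols not above background. The female *Pparg-cKO* pool with DMSO is the highest of the 8 for each of the 6 genes, from 8.83 for *Il1f8* to 13.33 for *S100a8*.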

How the data were processed

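RNA of 8 pools was measured on 4 two-color Agilent arrays. Per the file headers, Feature Extraction gave each spot's intensity and local background in both colors, the processed intensity, and the deposited log10 ratio of red over green, which was used only to check the dyes. The headers name its version 12.2.0.7 and the submitters' processing notes 10.7.3.1. The deposited score gives, per probe, the fold between the treatments with a sign, and its normalization is not given in the sources used here, so it served only as an alternative.

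Mean intensities were corrected with normexp (offset 50), normalized by loess within and by Aquantile between arrays, and averaged over the 4 spots of a probe without outliers. A probe counted as above background in a pool if over 0.5 of its spots were, and was tested if this held for the male and female pools of any group, which left 27064 probes. Ratios of treatments on 1 array were fitted with limma 3.58.1 in R 4.3.3, and genotypes in its separate-channel fit (intraspot correlation 0.059). Each gene took its brightest probe, chosen without regard to change. Fold changes are antilogs of log2 differences.

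The methods' rule used processed intensities scaled to a 75th percentile of 1500 with a floor of 15. A gene passed if any probe had over 100 in the brighter channel and a fold of 1.5 or more, with the same sign, in each replicate, and no probe passed in the opposite one.

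"At least" folds set each pool that was not above background to the higher of its own value and the lowest value above background. Accessions of 80 of the 82 probes were found in RefSeq, all with the same symbol. The genes and lists were chosen with earlier results of these data known. Named were all genes that passed a test or the rule, the 5 largest changes each way per comparison, the 15 brightest, partners of these, and up to 5 list genes each way. Checks on simulated data preceded the tests. Alternatives were other signals, offsets, filters, probes and models, and leaving out each array. Between 66.3% and 70.5% of spots per channel were above background, 0 were saturated, and 2 pools per group limit the precision.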

Additional observations from a re-analysis of the deposited data

How the results depend on the processing

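No call of a single gene changed direction: of 69 calls recomputed under the alternatives that gave a value, 535 of 682 values kept the call, 147 lost it and 0 turned. The counts of interleukin genes called with purmorphamine were 17 in *Pparg-cKO*, 11 in control and 35 on average. All counts in this section are of interleukin genes alone, and the shares of all genes called under each alternative are not given.

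With the scanner's processed signals, 6 genes were called in control ureters and 4 between genotypes with purmorphamine. With an offset of 16, 7 were called between genotypes with DMSO, and without Aquantile normalization also 7, where the median of all genes moved to -0.15. With all probes tested the counts were 2 between genotypes with DMSO, 6 in *Pparg-cKO* and 2 in control ureters, and with only probes above background in all 8 channels 2 between genotypes with DMSO and 11 in *Pparg-cKO* ureters, when fewer interleukin genes (49) were tested. Leaving out 1 array gave 0 to 4 genes between genotypes with DMSO, 0 with purmorphamine, 5 to 20 in *Pparg-cKO*, 0 to 18 in control ureters, and 0 to 1 for the difference of the effects. An arm left with 1 array was assumed to vary like the other.

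By the methods' rule, a fold of 2 gave 0 and 0 genes between genotypes, and 9 and 9 with purmorphamine. No intensity threshold gave 6 and 2 between genotypes and 29 in *Pparg-cKO* ureters. A single replicate gave 10 to 19 and 4 to 6 between genotypes, 17 to 30 in *Pparg-cKO* and 19 to 26 in control ureters. The cause of these changes was not tested. All other counts stayed within 1.5 times.

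Replicate numbers share sex and dye, not animals. Differences between replicates correlated between genotypes at -0.149 with DMSO and 0.470 with purmorphamine across 20229 genes, which are not independent. With a replicate block, 18, 13 and 37 genes were called with purmorphamine in *Pparg-cKO*, in control and on average, and 2 and 0 between genotypes.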
